A study of Mus musculus with 16 samples.

Results

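Glycolysis breaks glucose down to pyruvate in the cytosol. Most of its steps can be carried out by more than 1 isozyme, and lactate dehydrogenases and monocarboxylate transporters then turn pyruvate into lactate and move it across the membrane. Many of these genes are also targets of hypoxia-inducible factor (HIF), whose α subunit is marked for destruction by prolyl hydroxylases while oxygen is present, so that a glycolytic programme and a hypoxia response are often read out together. The 39 genes followed here are a list given by symbol, chosen with earlier results of these data known: 23 that carry out or control glycolysis and lactate handling, and 16 of HIF signalling and its targets. Of these, 38 were found among the 14474 genes of the count table, and *Adm* was not analysed here.

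RNA-seq was performed on immortalized mouse keratinocytes, the epithelial cells of the epidermis. MKα3− cells lack integrin α3, and MKα3+ cells are the same cells after human integrin α3 was put back, which restores α3β1, a receptor for laminin-332 (LN332). Both lines were grown on collagen-coated dishes in low-calcium medium and received either LN332 at 0.02 mg/mL or an equal volume of vehicle (PBS with glycine and NaN3) for 16 to 24 h. Each of the 4 combinations of line and treatment had 4 libraries, 16 in all. No label sets apart clones of a line, so integrin α3 and any other difference between the lines cannot be told apart, and no label says that the libraries of a group came from separate cultures, so p-values measure the spread between these libraries alone. A lower level in such a bulk sample can mean fewer cells of a type or less RNA per cell, which cannot be told apart.

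Total counts per library were between 21735708 and 29338370. The 12 keratinocyte markers summed to between 12351 and 25505 CPM (counts scaled to each library's total) in every library, against 11.6 to 40.7 CPM for 5 of 8 fibroblast markers. The sum hides differences of single keratinocyte markers between the lines, called by the test described below. *Lamb3* (log2 fold change −0.66) and *Perp* (−0.70) were lower in MKα3+ cells in vehicle. In LN332 *Lamb3* (−0.76), *Perp* (−0.78), *Krt5* (−0.80) and *Trp63* (−0.91) were lower and *Cdh1* (0.82) was higher. The other keratinocyte markers were not called. Immune markers (4 of 5 listed) were uneven, from 20.8 to 306 CPM. The macrophage marker *Adgre1* stood at 34.9, 34.5 and 35.2 CPM in vehicle-treated MKα3+ libraries 3 and 4 and in LN332-treated MKα3+ library 4, and at 0.106 to 10.4 CPM in the other 13 libraries. Where leaving out these 3 libraries together removed a call or an adjusted p under 0.05, this is given beside the member. That setting also leaves fewer libraries in the fit. Counts of mouse *Itga3*, which were 4530 to 8830 in MKα3− and 5799 to 8370 in MKα3+ libraries, do not separate the lines and check nothing about the human transgene.

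The promoters of 4 members are shown: *Egln3* and *Aldoc*, which had the largest falls between the lines, *Bnip3*, a HIF target that fell less, and *Cited2*, which rose. Capitals mark ACGTG or GCGTG, read on either strand, the core letters of the motif that HIF binds; CACGTG reads as ACGTG on both strands and counts as a match on each. The sequences are the 250 bases before the RefSeq start site in GRCm38.p6, 5′ to 3′ on the strand of the gene. *Egln3* lies on the minus strand (chr12:54203875-54204124), *Bnip3* on the minus strand (chr7:138909507-138909756), *Aldoc* on the plus strand (chr11:78322823-78323072, the first of its 2 start sites) and *Cited2* on the plus strand (chr10:17722978-17723227).
Egln3: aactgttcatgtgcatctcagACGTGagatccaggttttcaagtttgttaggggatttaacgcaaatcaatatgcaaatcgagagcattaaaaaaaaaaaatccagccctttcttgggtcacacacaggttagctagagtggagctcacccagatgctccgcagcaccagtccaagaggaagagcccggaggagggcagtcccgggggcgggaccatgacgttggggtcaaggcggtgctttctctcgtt
Bnip3: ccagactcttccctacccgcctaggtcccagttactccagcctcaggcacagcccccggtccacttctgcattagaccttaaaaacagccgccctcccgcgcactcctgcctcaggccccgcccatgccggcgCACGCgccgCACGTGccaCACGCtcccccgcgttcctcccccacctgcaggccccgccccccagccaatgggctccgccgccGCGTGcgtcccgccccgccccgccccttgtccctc
Aldoc: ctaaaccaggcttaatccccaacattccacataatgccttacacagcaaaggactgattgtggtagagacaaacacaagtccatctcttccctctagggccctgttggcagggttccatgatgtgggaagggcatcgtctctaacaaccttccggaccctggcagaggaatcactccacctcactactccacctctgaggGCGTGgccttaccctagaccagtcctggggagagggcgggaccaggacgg
Cited2: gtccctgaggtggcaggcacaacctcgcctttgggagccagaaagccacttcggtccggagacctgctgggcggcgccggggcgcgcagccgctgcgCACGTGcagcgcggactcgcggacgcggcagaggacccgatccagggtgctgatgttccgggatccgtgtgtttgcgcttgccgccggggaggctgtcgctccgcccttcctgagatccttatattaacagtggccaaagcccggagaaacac
Windows of 250 bases before to 50 after a start site were found for 36 of the 38 members, 54 windows in all. Of these, 77.8% held at least 1 such core, against 60.3% of the windows of all genes in the count table and 43.8% of all windows. A match is a string of letters and not a shown binding site.

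The members spanned a wide range of levels. Per kilobase of exon and over all 16 libraries, *Pkm* (pyruvate kinase) was the highest with a mean of 640 CPM per kb, followed by *Aldoa* (aldolase A) with 348, *Ldha* (lactate dehydrogenase A) with 304 and *Tpi1* (triosephosphate isomerase) with 244. At the other end, *Ankrd37* stood at 1.42, *Car9* (a carbonic anhydrase of the cell surface) at 0.502, *Slc16a3* (a lactate exporter) at 0.434, *Ldhb* at 0.382 and *Eno2* at 0.109 CPM per kb. Estimates for these low members rest on few reads and are correspondingly wide. The *Gapdh* row stood at 22.2 CPM per kb. It held only 11.5% to 15.7% of the reads of *Gapdh* and its near-identical copies, so the place of *Gapdh* in this order is uncertain.

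The first question was which members differed between MKα3+ and MKα3− cells. In vehicle, 7 of 38 members were lower in MKα3+ cells and 2 were higher. The genes that fell were the glucose transporter *Slc2a1*, the hexokinase *Hk1*, the phosphofructokinase *Pfkl*, the aldolase *Aldoc*, the HIF prolyl hydroxylase *Egln3*, the mitophagy receptor *Bnip3* and *Ankrd37*, a HIF target. The genes that rose were *Ldhb* and *Cited2*, which encodes a protein that competes with HIF for its coactivator. A gene passed when its adjusted p in limma-voom was under 0.05 and its log2 fold change was over 0.5 in size. These 9 members were 23.7% of the list, against 18.5% of all genes tested. By direction the background was 7.56% lower and 10.9% higher, and the members' counts were 7 and 2. The median log2 fold change was −0.09 over the members and 0.01 over all genes.

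In LN332, 7 members were again lower in MKα3+ cells and 2 higher, while 20.6% of all genes passed (8.92% lower, 11.7% higher). The members lower in both treatments were *Slc2a1*, *Hk1*, *Pfkl*, *Aldoc*, *Egln3* and *Bnip3*, and *Cited2* was higher in both. *Ddit4*, an inhibitor of mTORC1 signalling, was lower in LN332, where its log2 fold change was −0.73 (SE 0.12), and stood at −0.44 (SE 0.12) in vehicle, under the minimum fold. *Hk2*, the inducible hexokinase, was higher in LN332 at 0.52 (SE 0.16), just over the minimum. It was no longer called when any 1 of 6 libraries was left out: LN332-treated MKα3− 1, 2 or 4 or LN332-treated MKα3+ 2, 3 or 4. It was also not called in edgeR, in DESeq2, with only the groups compared or without the 3 *Adgre1*-high libraries (0.47, adjusted p = 0.0979). The difference between these 2 comparisons was tested as an interaction, and 0 members passed in limma-voom, edgeR or DESeq2, with 0 at an unadjusted p under 0.05 in limma-voom, so no member was shown to depend on the line differently in vehicle and in LN332. Of all 14474 genes, 0% passed that test in limma-voom and 164 had an unadjusted p under 0.05.

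**Figure D1:**
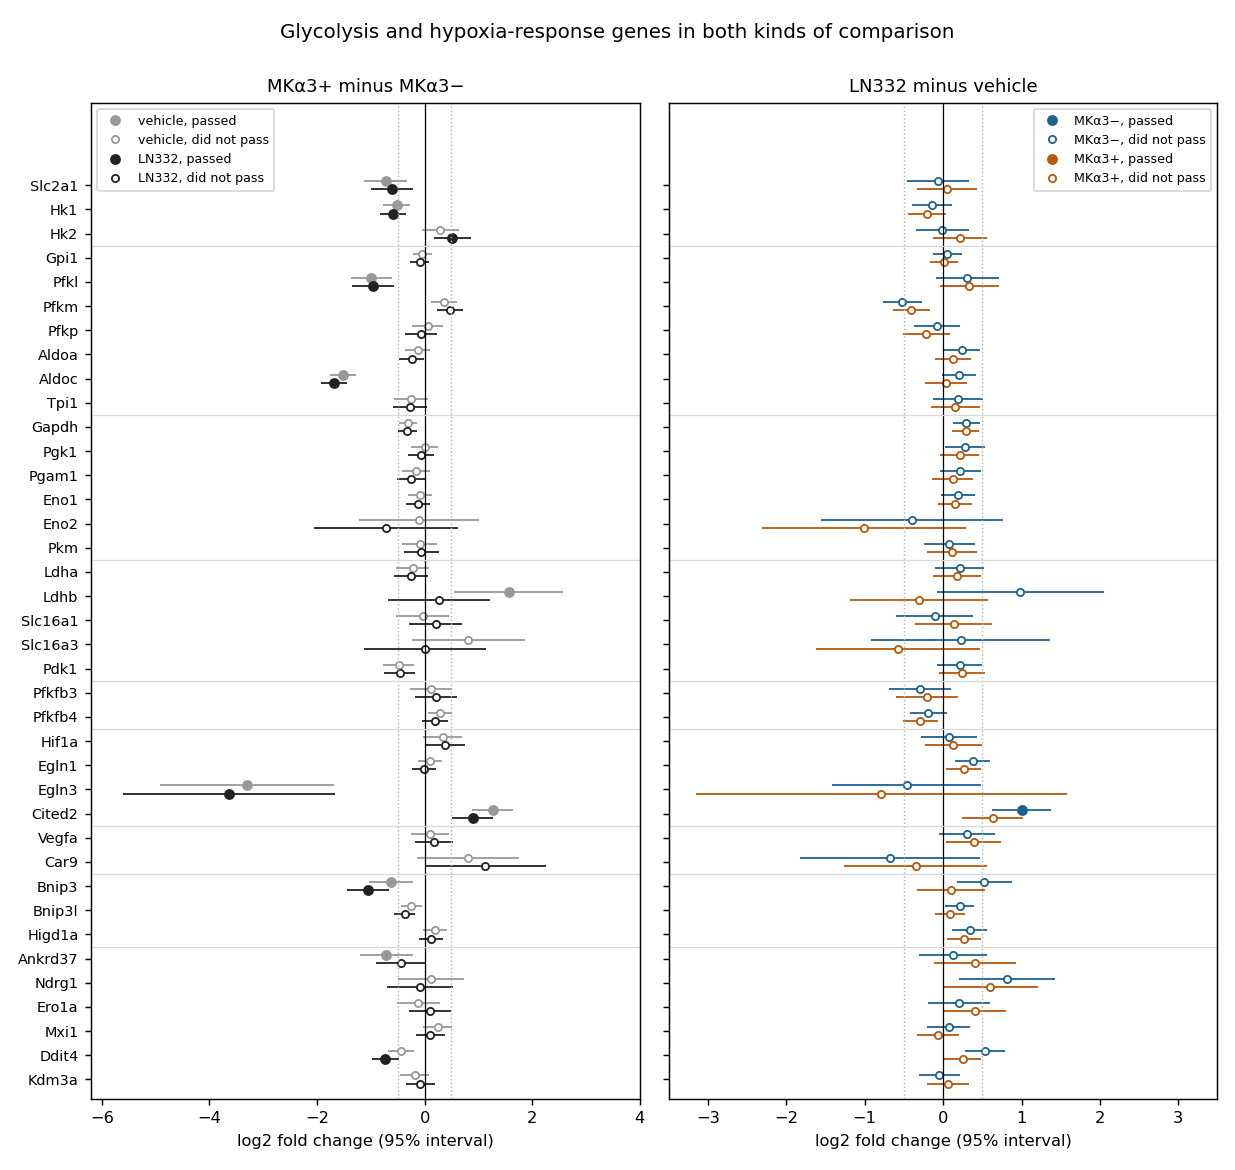
Log2 fold changes of the 38 members with 95% intervals, MKα3+ minus MKα3− cells on the left (vehicle in grey, LN332 in black) and LN332 minus vehicle on the right (MKα3− in blue, MKα3+ in orange), in order of their roles. Filled points passed the test and dotted lines mark the minimum fold of 0.5. *Egln3* and *Aldoc* lie farthest to the left, and on the right the only filled point is *Cited2* in MKα3− cells.

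Among the hypoxia-response genes, *Egln3* (Entrez 112407, chr12:54178981-54203874) showed the largest difference. In vehicle-treated MKα3− cells it stood at 18.5, 7.49, 24.2 and 7.18 CPM, and in vehicle-treated MKα3+ cells at 0.509, 0.802, 2.43 and 2.30 CPM. With LN332 the values were 12.2, 4.38, 18.8 and 6.16 CPM in MKα3− cells and 0.321, 0.365, 0.739 and 2.58 CPM in MKα3+ cells. All 8 MKα3− libraries lay above all 8 MKα3+ libraries, although the MKα3− values varied several-fold among themselves. Its log2 fold change was −3.31 (SE 0.77, adjusted p = 0.00364 in limma-voom) in vehicle and −3.63 (SE 0.93, adjusted p = 0.00661) in LN332. Within MKα3+ cells the 3 highest values of *Egln3* were those of the 3 libraries with high *Adgre1*; without them the difference was as large, at −4.25 (SE 1.23) in vehicle and −4.27 (SE 1.15) in LN332. The other prolyl hydroxylase of the list, *Egln1*, stood at 0.10 (SE 0.11) in vehicle and −0.02 (SE 0.11) in LN332, and *Hif1a* itself stood at 0.33 (SE 0.17) in vehicle and 0.38 (SE 0.17) in LN332 and passed in neither.

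*Bnip3* (Entrez 12176, chr7:138890836-138909506), whose product marks mitochondria for removal, followed the same direction with a smaller change. It stood at 14.0, 13.5, 16.7 and 11.9 CPM in vehicle-treated MKα3− cells and at 9.39, 9.42, 8.85 and 8.42 CPM in vehicle-treated MKα3+ cells. With LN332 the values were 16.6, 19.2, 29.4 and 16.6 CPM in MKα3− cells and 8.07, 8.12, 11.9 and 10.9 CPM in MKα3+ cells. The lines did not overlap within either treatment. Between the lines *Bnip3* fell, with a log2 change of −0.63 (SE 0.19, adjusted p = 0.0211 in limma-voom) in vehicle and −1.05 (SE 0.19, adjusted p = 0.000336) in LN332. The call in vehicle was lost without MKα3− library 3 (adjusted p = 0.0675), without MKα3+ library 4 (adjusted p = 0.0586) and without the 3 *Adgre1*-high libraries (adjusted p = 0.172). An antisense gene overlaps an exon of *Bnip3*, and without a stated strand its reads cannot be told from those of *Bnip3*.

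*Cited2* (Entrez 17684, chr10:17723228-17725674) moved the other way. Its values were 52.4, 55.7, 42.2 and 66.2 CPM in vehicle-treated MKα3− cells and 140, 107, 148 and 123 CPM in vehicle-treated MKα3+ cells. With LN332 they were 96.8, 96.0, 98.7 and 143 CPM in MKα3− cells and 253, 138, 228 and 197 CPM in MKα3+ cells. The lines were separate in vehicle and overlapped in LN332 through MKα3− library 4 and MKα3+ library 2. The level in MKα3+ cells was 2.401-fold higher in vehicle (log2 1.26, SE 0.18, adjusted p = 4.86e-05 in limma-voom) and 1.86-fold higher in LN332 (log2 0.89, SE 0.18, adjusted p = 0.00121).

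**Figure D2:**
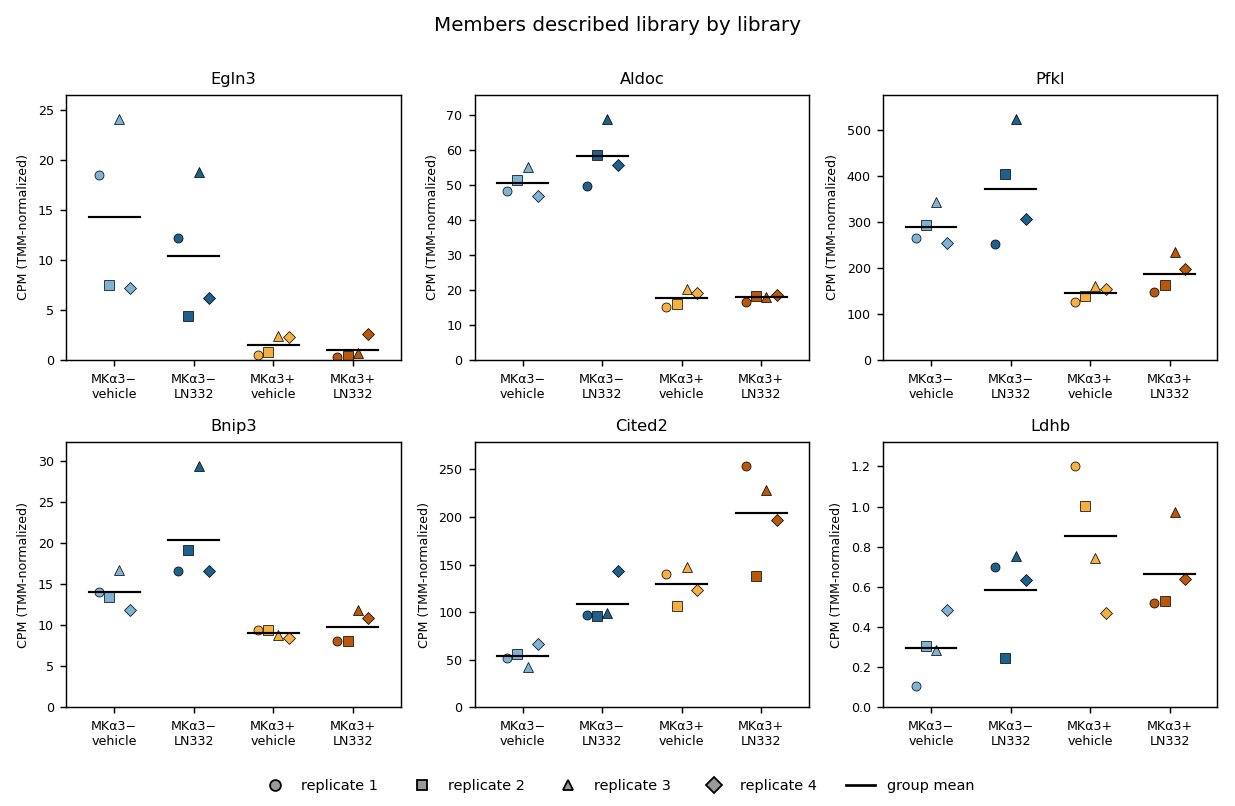
TMM-normalized CPM of 6 members in each of the 16 libraries, on linear axes from 0, with the replicate number as the marker and the group mean as a line. *Egln3*, *Aldoc* and *Pfkl* are lower in every MKα3+ library than in every MKα3− library of the same treatment, *Cited2* has its highest group mean in LN332-treated MKα3+ cells, and *Ldhb* stays at or under 1.201 CPM.

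Among the glycolytic enzymes, *Aldoc* (Entrez 11676, chr11:78323073-78327781), the aldolase isozyme best known from brain, had the smallest adjusted p of all members in both treatments. It stood at 48.4, 51.6, 55.1 and 46.8 CPM in vehicle-treated MKα3− cells and at 15.1, 15.9, 20.4 and 19.2 CPM in vehicle-treated MKα3+ cells. With LN332 the values were 49.9, 58.6, 69.0 and 55.7 CPM in MKα3− cells and 16.7, 18.3, 18.1 and 18.7 CPM in MKα3+ cells. The gap between the lines was far wider than the spread within any group. It was 2.87-fold lower in MKα3+ cells in vehicle (log2 −1.52, SE 0.12, adjusted p = 3.9e-08 in limma-voom) and 3.23-fold lower in LN332 (log2 −1.69, SE 0.12, adjusted p = 1.15e-08).

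*Pfkl* (Entrez 18641, chr10:77986947-78009807), the liver-type phosphofructokinase of the committed step, was lower by a similar factor in both treatments. In vehicle it stood at 267, 294, 345 and 256 CPM in MKα3− cells and at 127, 140, 162 and 155 CPM in MKα3+ cells. With LN332 the values were 252, 405, 525 and 307 CPM in MKα3− cells and 149, 164, 235 and 197 CPM in MKα3+ cells. No MKα3+ library reached the lowest MKα3− library in either treatment. The change on the log2 scale was −0.99 (SE 0.18, adjusted p = 0.000633 in limma-voom) in vehicle and −0.96 (SE 0.19, adjusted p = 0.000803) in LN332.

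*Ldhb* (Entrez 16832, chr6:142490249-142507957), the lactate dehydrogenase subunit that favours lactate use, passed in vehicle on very few reads. Counts were 3, 9, 8 and 14 in MKα3− cells and 33, 25, 19 and 13 in MKα3+ cells, or 0.105 to 0.484 CPM against 0.468 to 1.201 CPM. The lowest MKα3+ library lay below the highest MKα3− library. The rise on the log2 scale was 1.56 (SE 0.48, adjusted p = 0.0217 in limma-voom), and the call was lost without MKα3− library 1 (adjusted p = 0.0792) or MKα3+ library 1 or 2 (adjusted p = 0.0583 and 0.0534). In LN332 the counts were 18, 7, 21 and 13 against 13, 13, 25 and 17, and the log2 fold change of 0.27 (SE 0.45) did not pass.

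At the entry to the pathway, *Slc2a1*, which encodes the glucose transporter GLUT1, averaged 224 ± 25.9 CPM without and 135 ± 12.6 CPM with integrin α3 in vehicle (SD, n = 4 each), and its log2 fold change was −0.73 (SE 0.19). *Hk1*, the constitutive hexokinase, averaged 287 ± 30.1 and 200 ± 14.6 CPM (SD, n = 4 each), with −0.52 (SE 0.12). The *Hk1* call in vehicle sits near the minimum fold and was lost without MKα3− library 3 or MKα3+ library 1. It was also lost with quality weights. In LN332 the calls of both genes were lost without MKα3− library 3, which held the highest value of many members, and that of *Slc2a1* with only the groups compared. Both genes have an annotated antisense gene on the opposite strand. *Ankrd37* fell from 2.46 ± 0.290 CPM in MKα3− to 1.52 ± 0.365 CPM in MKα3+ cells in vehicle (SD, n = 4 each), and its call was lost when any 1 of 4 vehicle libraries was left out (MKα3− 2 or 4, MKα3+ 1 or 2) or the 3 *Adgre1*-high libraries were (adjusted p = 0.0531).

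None of the members of lower glycolysis passed between the lines. For these 6 (*Gapdh*, *Pgk1*, *Pgam1*, *Eno1*, *Eno2* and *Pkm*), log2 fold changes in vehicle ran from −0.31 to −0.000768, and 0 of 6 passed in limma-voom, edgeR or DESeq2. *Gapdh* alone had an unadjusted p under 0.05 in limma-voom, and its adjusted p of 0.00881 became 0.0704 without the 3 *Adgre1*-high libraries (in LN332, 0.0067 became 0.051). *Pdk1*, which keeps pyruvate out of the mitochondria, had an adjusted p under 0.05 in both treatments but a log2 fold change of −0.48 in vehicle and −0.46 in LN332, under the minimum. Without the 3 *Adgre1*-high libraries its adjusted p was 0.155 and 0.0581. *Pfkm*, the muscle-type phosphofructokinase, was likewise under the minimum at 0.36 and 0.47, in the direction opposite to *Pfkl*, and without these 3 libraries its adjusted p in vehicle was 0.259. *Pfkfb4*, an enzyme that sets the level of the activator of phosphofructokinase, was at 0.29 in vehicle, and its adjusted p of 0.0454 became 0.574. In vehicle, 14 members had an adjusted p under 0.05 at any fold (28.4% of all genes did), 10 of them lower and 4 higher.

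Because isozymes share a step, their shares among the isozymes of the list were computed per kilobase of exon in each library, as a description without a test. *Hk2* made up 35.3 ± 1.62% of the hexokinase signal in vehicle-treated MKα3− cells and 49.0 ± 0.766% in vehicle-treated MKα3+ cells, and 37.4 ± 2.05% and 56.3 ± 4.06% with LN332 (SD, n = 4 each). *Pfkl* made up 74.9 ± 1.08% of phosphofructokinase in vehicle-treated MKα3− and 54.7 ± 1.79% in vehicle-treated MKα3+ cells, and 83.3 ± 2.70% and 66.4 ± 3.38% with LN332. By this measure the rest was mostly *Pfkm*, at 20.9% and 38.9% in vehicle. All annotated exons of *Pfkm* span 3.34 kb, against 13.4 kb for *Pfkp*. In CPM *Pfkm* and *Pfkp* were closer, at 40.4 and 33.0 in vehicle-treated MKα3− and 52.0 and 34.3 in vehicle-treated MKα3+ cells. The split between these genes therefore depends on the lengths used. Both also overlap an exon of a gene on the opposite strand. *Aldoc* was a small part of aldolase throughout, at 4.38 ± 0.525% in MKα3− and 1.71 ± 0.241% in MKα3+ cells in vehicle, because *Aldoa* was far more abundant. For the summed phosphofructokinase signal the group means were 58.1 and 40.0 CPM per kb in vehicle. *Ldha* made up 99.8% to 99.9% of the sum of *Ldha* and *Ldhb* in the group means, and *Eno1* 99.9% of the sum of *Eno1* and *Eno2*. *Eno3*, a further enolase outside the list, is not in that sum and is given with the other pathway genes.

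**Figure D3:**
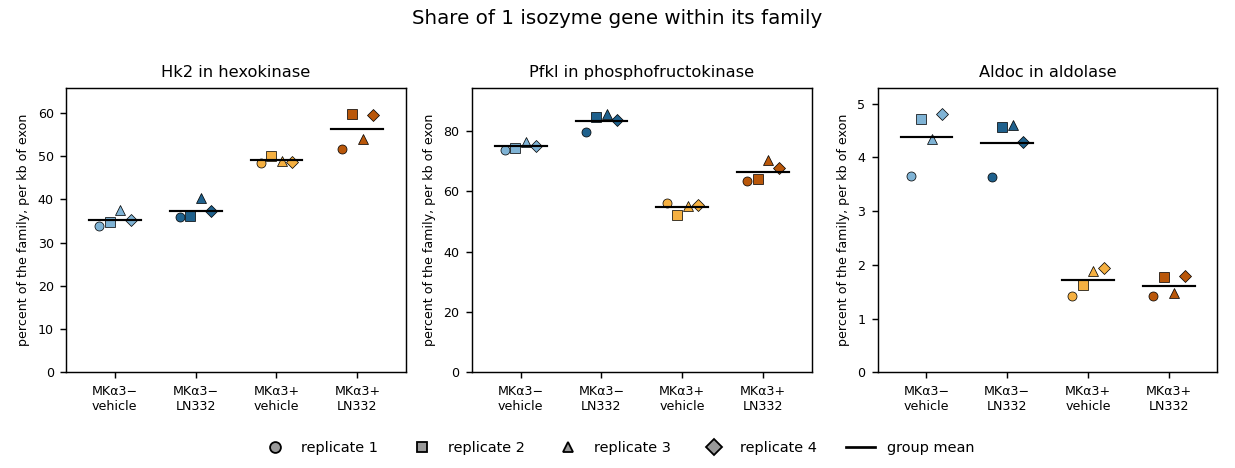
Share of *Hk2* among the 2 hexokinases, of *Pfkl* among the 3 phosphofructokinases and of *Aldoc* among the 2 aldolases of the list, in percent of the family's CPM per kb of exon, for each of the 16 libraries (markers show the replicate, lines the group mean). The MKα3+ libraries lie above the MKα3− libraries for *Hk2* and below them for *Pfkl* and *Aldoc*, with no overlap between the lines.

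The second question was which members responded to LN332. In MKα3+ cells 0 of 38 members passed in limma-voom, where 0.187% of all genes did. An unadjusted p under 0.05 in limma-voom was found for 9 members and for 1388 of all 14474 genes. DESeq2 called 1 member and edgeR 0, and the shares of all genes in these 2 tests are not given here. In MKα3− cells 1 member, *Cited2*, passed, where 0.304% of all genes did and 0.242% rose. It was 2.003-fold higher with LN332 in MKα3− cells (log2 1.002, SE 0.18, adjusted p = 0.0285 in limma-voom) and 1.55-fold higher in MKα3+ cells (log2 0.63, SE 0.18, adjusted p = 0.184). All LN332 values lay above all vehicle values in MKα3− cells, and in MKα3+ cells the lowest LN332 library (138 CPM) fell inside the vehicle range of 107 to 148 CPM. The interaction for *Cited2* was −0.37 (SE 0.26, adjusted p = 1 in limma-voom), so its response was not shown to differ between the lines. The call in MKα3− cells was lost without vehicle library 2 or 3 or LN332 library 2 or 4, with adjusted p-values from 0.0752 to 0.116, and without the 3 *Adgre1*-high libraries (adjusted p = 0.114). Averaged over both lines, *Cited2* was 1.76-fold higher (log2 0.82, SE 0.13, adjusted p = 0.00265) and remained called whichever library was left out; 1.35% of all genes passed in that average, 0.919% in the upward direction.

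In the same average, 5 further members had an adjusted p under 0.05 below the minimum fold (4.4% of all genes had one at any fold). *Ddit4* was at 0.39 (SE 0.08), *Egln1* at 0.32 (SE 0.07), *Higd1a*, a mitochondrial protein of the hypoxia response, at 0.30 (SE 0.07) and *Gapdh* at 0.29 (SE 0.06), all higher with LN332. *Pfkm* was lower, at −0.46 (SE 0.08). Without the 3 *Adgre1*-high libraries none of these 5 kept an adjusted p under 0.05, with values from 0.0922 to 0.253, while the log2 fold changes were 0.42, 0.29, 0.26, 0.31 and, for *Pfkm*, −0.42. The following values were chosen after they were seen. *Pfkm* stood at 38.9, 42.8, 44.0 and 35.8 CPM in vehicle-treated and 25.5, 29.3, 33.6 and 24.2 CPM in LN332-treated MKα3− cells, and at 42.2, 56.0, 56.4 and 53.5 CPM in vehicle-treated and 36.7, 39.3, 40.9 and 39.0 CPM in LN332-treated MKα3+ cells. The treatments did not overlap in either line. *Pfkm* shares exon sequence with *Senp1* on the opposite strand and was not told apart from it.

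*Ndrg1*, a stress-response gene and HIF target, showed a larger response with more spread, and its values were also chosen after they were seen. It stood at 45.9, 102, 74.6 and 115 CPM in vehicle-treated and 66.5, 165, 163 and 214 CPM in LN332-treated MKα3− cells. In MKα3+ cells it stood at 94.1, 79.5, 83.0 and 89.9 CPM in vehicle and 116, 134, 131 and 144 CPM in LN332. The treatments overlapped in MKα3− cells and were separate in MKα3+ cells. Its averaged log2 fold change was 0.71 (SE 0.20) with an adjusted p of 0.0574 in limma-voom, just outside the threshold, and edgeR and DESeq2 called it.

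Across the list, 27 of 38 log2 fold changes were positive with LN332 in MKα3+ cells and 26 of 38 in MKα3− cells, where 48.5% and 48.9% of all genes were positive. The medians were 0.12 and 0.20, against −0.01 over all genes in each. Scaling by library size alone moved the medians of all genes to −0.08 in both lines and the counts of positive members to 23 and 22. Without overlap between treatments, 5 members were higher in every LN332-treated MKα3− library than in every vehicle library (2.29% of all genes) and 1 was lower (2.66%). In MKα3+ cells 4 were higher (4.78%) and 1 lower (4.88%). *Gapdh* and *Egln1* were among the higher in both lines and *Pfkm* was the lower in both.

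One library in each group stood high for this list. Library 3 held the highest value of its group for 21 of 38 members in vehicle-treated MKα3− cells, 28 in LN332-treated MKα3− cells, 20 in vehicle-treated MKα3+ cells and 23 in LN332-treated MKα3+ cells. Over all genes the same libraries were highest for 18.2%, 23.2%, 19% and 17.9%. Calls that leaving out 1 of these libraries removed are given above. The mean log2 change of the members with LN332 in MKα3− cells was 0.14 with all libraries, 0.05 without LN332-treated library 3 and 0.18 without vehicle-treated library 3, the lowest and highest values when 1 library was left out.

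*Gapdh*, *Eno1* and *Bnip3l* have near-identical copies among the counted genes and are uncertain for that reason; the copies were looked up after the values were seen. The *Gapdh* row itself held 11.5% to 15.7% of the reads of *Gapdh* and 5 copies in each library. The pseudogene rows *Gm12070* and *Gapdh-ps15* averaged 382 and 233 CPM in vehicle-treated MKα3− cells, against 91.4 CPM for *Gapdh*. Summed with its copies, *Gapdh* averaged 709 ± 46.4 CPM in MKα3− cells and, lower, 574 ± 24.5 CPM in MKα3+ cells (vehicle, SD, n = 4 each). The sum gave −0.30 (SE 0.09) on the log2 scale where the row alone gave −0.31 (SE 0.08). With LN332, the averaged change was 0.21 (SE 0.06, adjusted p = 0.061 in limma-voom) for the sum and 0.29 (SE 0.06, adjusted p = 0.00988) for the row alone, so the sum did not keep the low adjusted p. *Eno1* held 66.9% to 73.6% of its sum with *Eno1b*.

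**Figure D4:**
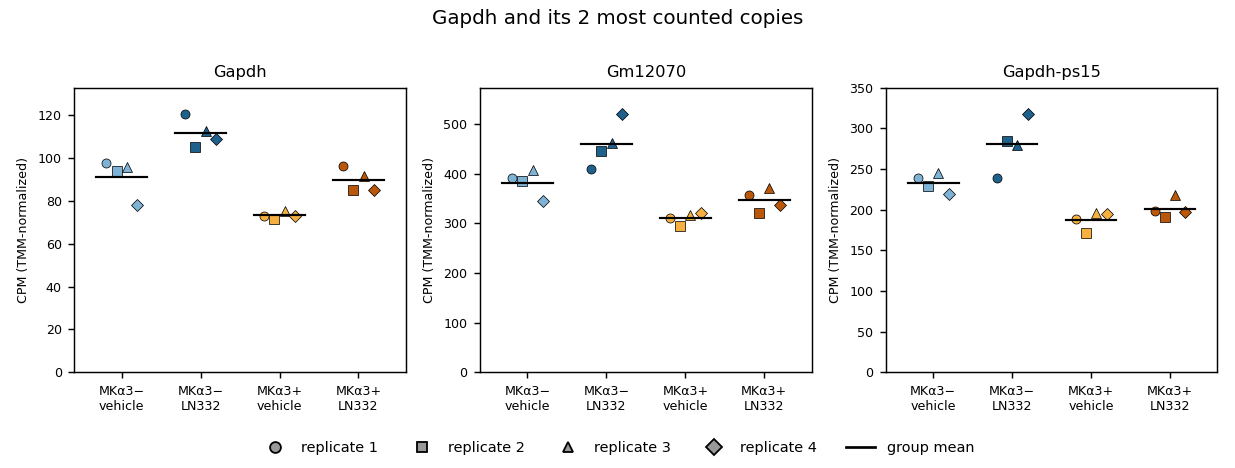
TMM-normalized CPM of *Gapdh* and of its pseudogene rows *Gm12070* and *Gapdh-ps15* in the 16 libraries, on linear axes from 0, with the replicate as marker and the group mean as a line. Both pseudogene rows hold more reads than *Gapdh* in every library, and in all 3 rows the MKα3− group means are above those of MKα3+ cells in the same treatment.

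*Slc16a3*, the lactate exporter of highly glycolytic cells, stood at 1.36 to 2.003 CPM in vehicle-treated and 1.17 to 2.69 CPM in LN332-treated MKα3− cells. In MKα3+ cells it stood at 1.71, 1.32, 5.48 and 4.89 CPM in vehicle and 1.004, 1.22, 1.79 and 5.32 CPM in LN332. The 3 high libraries were those with high *Adgre1*, in which *Lyz2*, a further macrophage marker, was at 229, 237 and 237 CPM against 3.61 to 77.4 CPM elsewhere. The leukocyte marker *Ptprc* was also highest there, but *Cd68*, another macrophage marker, did not set these libraries apart: it was at 31.4, 30.8 and 21.5 CPM in them and at 11.7 to 41.2 CPM elsewhere. Between the lines in vehicle, *Slc16a3* had a log2 fold change of 0.81 (SE 0.50) with all libraries and −0.08 (SE 0.37) without these 3. It passed in neither. The part of the macrophage markers in the other members was not tested. Leaving out the 3 libraries gave 7 called members between the lines in vehicle, where *Bnip3* and *Ankrd37* were lost, and 8 in LN332, where *Hk2* was lost. The shares of all genes called without these libraries are not given here, so whether all genes lost calls alike is not shown.

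**Figure D5:**
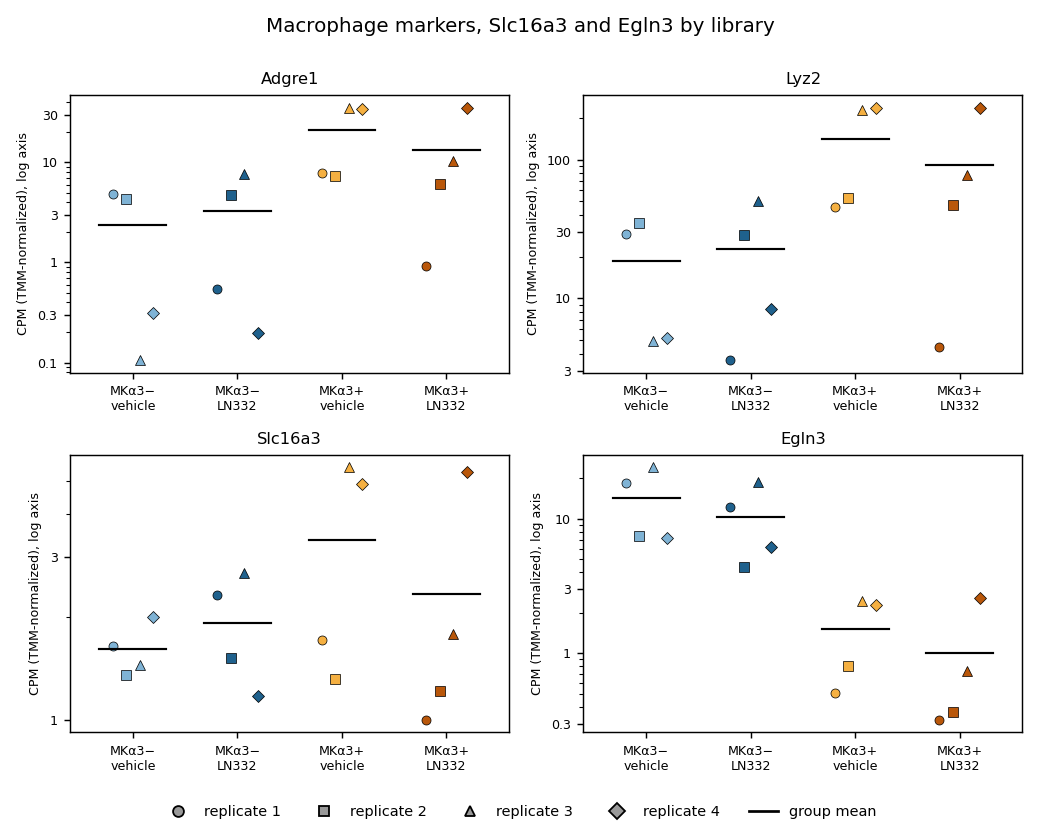
TMM-normalized CPM on log axes of the macrophage markers *Adgre1* and *Lyz2* and of the members *Slc16a3* and *Egln3* in the 16 libraries, with the replicate as marker and the group mean as a line. Vehicle-treated MKα3+ libraries 3 and 4 and LN332-treated MKα3+ library 4 are the highest for both markers and for *Slc16a3*, and for *Egln3* they are the highest among MKα3+ libraries while staying below every MKα3− library.

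Genes of the same pathways outside the list were read from 7 fixed lists with 142 measured genes. In vehicle, 19 were higher and 9 lower in MKα3+ cells, 19.7% of these genes beside 18.5% of all genes. By direction, 10.9% of all genes were higher and 7.56% lower, the background for each list below. Some differences in these lists were larger than any upward change within the members. *Hif3a*, a HIF α subunit whose short forms dampen HIF, rose from 0.556 ± 0.524 CPM in MKα3− to 9.67 ± 1.07 CPM in MKα3+ cells in vehicle (SD, n = 4 each, log2 4.56, SE 0.59). It was the 1 gene called of 15 in the list of HIF machinery. *Eno3*, the muscle-type enolase, averaged 18.8 ± 1.34 and 89.5 ± 20.7 CPM (log2 2.22, SE 0.18), and in its list of 19 other glycolysis and gluconeogenesis enzymes 1 more passed, *Pgam2*, which was lower (log2 −0.75, SE 0.18).

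In the mitochondrial branches, *Idh2*, an isocitrate dehydrogenase of the mitochondrion, was higher (log2 1.68, SE 0.11), as was *Aco1* (0.52, SE 0.10), and the other 18 genes of the tricarboxylic acid cycle list did not pass. Of 15 genes of pyruvate entry 3 were lower and 1 higher. *Ldhd* (−1.52, SE 0.53, at under 1 CPM), which oxidizes D-lactate, and *Pdk2* (−1.26, SE 0.26), a kinase that shuts pyruvate dehydrogenase, fell most, and *Emb* (1.36, SE 0.43), a chaperone of monocarboxylate transporters, rose. Of 8 pentose phosphate enzymes 1 passed, *G6pdx*, which opens that branch and was lower (−0.73, SE 0.09). Of 19 genes of glycogen and hexose use 2 passed, *Galk1* (1.28, SE 0.09) and *Pgm2l1* (0.83, SE 0.17), both higher.

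Among 47 other hypoxia-response targets, 12 were higher and 4 lower in MKα3+ cells in vehicle, where 10.9% and 7.56% of all genes were. Their median log2 fold change was 0.15, against −0.09 over the members and 0.01 over all genes. The 2 largest rises were *Vldlr*, a lipoprotein receptor, at 3.63 (SE 0.43) and *Stc2*, a secreted stanniocalcin, at 3.40 (SE 0.81). The 2 largest falls were *Car12*, a carbonic anhydrase, at −1.27 (SE 0.25) and *Csrp2* at −1.25 (SE 0.33). With LN332 averaged over the lines, 3 of the 142 genes passed, all of them higher: *Stbd1* at 0.78 (SE 0.22), the transcription repressor *Bhlhe40* at 0.55 (SE 0.14) and the vasoconstrictor peptide gene *Edn1* at 0.53 (SE 0.12). That is 2.11% of these genes beside 1.35% of all genes.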

How the data were processed

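The authors aligned the poly(A)-selected reads of 16 libraries to mm10 (Rsubread, default settings) and counted them with featureCounts for Entrez genes. The deposited values are unnormalized raw counts of 14474 genes. Whether counting used strand is not given in the sources used here, so members whose exons overlap a gene on the opposite strand (15 of 38 in GENCODE vM21) are uncertain. The authors' threshold, above 0.5 CPM in 3 or more libraries, removed 0 of these genes. Total counts were 21735708 to 29338370 per library, and no 2 replicates matched within sampling noise (chi-square of 5.43 or more per degree of freedom).

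In R 4.3.3, edgeR 4.0.16 gave the TMM factors and limma 3.58.1 the voom weights and moderated contrasts, in 1 fit of all genes and all 16 libraries with a coefficient per group. Adjusted p-values are from limma-voom (Benjamini-Hochberg, all genes) unless the sentence names edgeR or DESeq2. A gene passed when that value was under 0.05 and its log2 change exceeded 0.5 in either direction. CPM values are TMM-normalized. Exon lengths, over all annotated exons of a gene, came from GENCODE vM21 gene models, and coordinates and promoters from RefSeq for GRCm38.p6. On simulated counts of 14474 genes the fit recovered 69.5% of 200 genes changed by a log2 of 1 between the lines in vehicle, with 8 false calls among the unchanged genes, and 72% with 1 false call for LN332 in MKα3+ cells. The simulated libraries shared nothing by replicate number. In the data 2676 genes passed between the lines in vehicle, far more than were changed in the simulation. These rates therefore need not hold for the data. DESeq2 1.42.0, edgeR's quasi-likelihood test, other scalings, other filters, a replicate block, quality weights, other minimum folds and leaving out libraries were tried as alternatives.

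The members, the pathway lists and the tests were chosen with earlier results of these data known. Values in every library are given for members called in an LN332 comparison, for members called between the lines in both treatments with a log2 fold change over 1 in size in either, and for the largest further changes in vehicle up to 6 members. From each pathway list at most 2 called genes per direction are named.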

Additional observations from a re-analysis of the deposited data

Results flagged for a closer look

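In 6 of the 152 groups of 4 libraries (38 members in 4 groups), 1 library lay so far from the other 3 that Dixon's criterion at 95% was passed. Chance alone gives about 1 in 20 groups, or 7.6 of 152. In vehicle-treated MKα3− cells, *Slc2a1* was at 262 CPM in library 3 and at 205 to 214 CPM in the others. In LN332-treated MKα3− cells, *Hk2* was at 160 CPM in library 3 against 91.7 to 100 CPM, and *Cited2* was at 143 CPM in library 4 against 96.0 to 98.7 CPM. In vehicle-treated MKα3+ cells, *Pfkfb3*, an enzyme that makes the activator of phosphofructokinase, was at 132 CPM in library 1 against 66.3 to 74.8 CPM. In LN332-treated MKα3+ cells, *Hk1* was at 194 CPM in library 3 against 164 to 168 CPM, and *Vegfa*, the angiogenic growth factor, was at 56.0 CPM in library 1, below 67.6 to 69.6 CPM. Of these 6 libraries 3 were library 3 of their group.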

How the results depend on the processing

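Between the lines, the count of 9 called members was 7 to 10 in both treatments under other tests, scalings, filters and samples, and moved with the minimum fold: in vehicle from 9 to 14 without a minimum and 4 at a minimum log2 change of 1, and in LN332 from 9 to 3 at that minimum. Leaving out 1 library gave 7 to 10 members in vehicle and 8 to 10 in LN332. For LN332 in MKα3+ cells the count of 0 became 1 with DESeq2 (*Cited2*), 1 with only the groups compared (*Ndrg1*) and 2 with quality weights (both), and stayed at 0 whichever library was left out. For LN332 in MKα3− cells the count of 1 became 3 with DESeq2, 2 with library size alone or with at least 10 counts in every library, and 0 with only the groups compared or without the 3 *Adgre1*-high libraries (a setting chosen after seeing the data). Without 1 library it was 0 to 3, with 3 without LN332-treated MKα3− library 1 and 2 without LN332-treated MKα3− library 3 or vehicle-treated MKα3+ library 1. For the average over both lines the count of 1 became 2 with edgeR, DESeq2, library size alone, at least 10 counts in every library or quality weights, 6 without a minimum fold and 0 at a minimum of 1, and was 1 to 2 without 1 library, with 2 without vehicle-treated MKα3− library 4, LN332-treated MKα3− library 1 or 3 or vehicle-treated MKα3+ library 1. The cause of these moves was not tested, and the shares of all genes called under these alternatives are not given here. The interaction gave 0 members under every alternative run. For the 6 members described by library, 12 of 408 values changed their call under these alternatives, and 9 of 576 did when 1 library was left out. The sign changed in at least 1 alternative for 6 of 36 combinations of member and comparison, none of them called: *Ldhb* between the lines in LN332, *Aldoc*, *Bnip3* and *Ldhb* with LN332 in MKα3+ cells, and *Egln3* and *Pfkl* in the interaction.

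The mean log2 change of the members with LN332 in MKα3+ cells was 0.04 and crossed 0 in some settings (−0.04 to 0.12), so it has no settled direction.

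Replicate numbers occur once in every group, but no label says what a number marks. Deviations from the group means correlated at 0.26 on average between same-numbered libraries of different groups and at −0.08 between others. Of 24 same-numbered pairs 18 were above 0.1 and the lowest was −0.05, and 14 of 16 libraries correlated best with their own number. The main fit did not treat the libraries as paired because no label pairs them, although these correlations show that same-numbered libraries tended to deviate together. Anything that same-numbered libraries share therefore stays in the spread that the main fit uses. The LN332 calls changed with this choice. With the replicate block, LN332 called 1 member in MKα3+ cells (*Cited2*), 5 in MKα3− cells (*Cited2*, *Bnip3*, *Ndrg1* and *Ddit4* higher, *Pfkm* lower) and 2 in the average (*Cited2* and *Ndrg1*). The shares of all genes called with the block are not given here, so these counts cannot be set against a background.

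Depth limits *Ldhb*, *Eno2*, *Car9*, *Slc16a3* and, in MKα3+ cells, *Egln3*, which rest on few counts.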
